A study of Mus musculus with 2 samples.

Results

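Type I interferon response genes were examined in cells of the mouse central nervous system after transplantation of blood stem and progenitor cells. The set holds 32 genes, fixed by symbol, and 31 of them were measured here out of 32285 listed genes. Mx1 was not analysed here. The 31 genes lie on 15 chromosomes and held 39453 of the unique molecular identifiers (UMIs, each 1 counted transcript molecule) in the kept cells of the heterozygous library and 53880 in those of the wild-type library. Their summed level per cell class was highest in classical monocyte-like cells and lowest in choroid plexus-like cells in both libraries, although every wild-type choroid plexus-like cell carried a barcode also listed in the other library. The genes did not move as 1 block: Bst2 was highest in Gpnmb-expressing macrophages, Ifi27l2a in classical monocyte-like cells, Slfn2 in mature neutrophil-like cells, and Ifit1, Ifit3 and Ifi44 in endothelial-like cells.

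Type I interferons are secreted proteins that cells release after sensing viral nucleic acid or stray DNA. They bind the receptor pair Ifnar1 and Ifnar2, whose kinases Jak1 and Tyk2 phosphorylate Stat2. With Irf9 it acts in a complex that enters the nucleus, binds the interferon-stimulated response element in promoters and switches on a broad set of antiviral genes. In the brain, microglia hold a low tonic level of these genes and raise them in infection, ageing and injury, while blood monocytes carry a higher resting level. The members fall into roles. Stat2, Irf9 and Irf7 transmit and amplify the signal. Ddx58 (RIG-I), Ifih1 (MDA5), Eif2ak2 (PKR), Zbp1 and the Ifi200 family genes Ifi203, Ifi204 and Ifi207 sense or bind nucleic acid. Ifit1, Ifit2, Ifit3, Oas1a, Oas3, Rsad2 (viperin) and Bst2 (tetherin) hinder viral translation, genomes or release. Isg15 is a ubiquitin-like modifier, Usp18 removes it and damps the receptor, and Cxcl10 is a chemokine that draws T and natural killer (NK) cells.

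Letters of the response element occur in many promoters of these genes. RefSeq promoter windows (GRCm38.p6, 250 bases before to 50 after the start) could be matched for 25 members. The letters GAAA, then any 2 bases, then GAAA, searched on both strands with overlapping matches counted, were present in 17 of the 25 (68.0%), against 1079 of 27025 genes in the same table (3.99%). A match is a stretch of letters, not a measured binding site. The 150 bases before the start are shown on the gene's own strand, 5′ to 3′, with the matched letters in capitals, for genes whose levels are described below: 3 overlapping matches in Isg15 (chr4:156200819-156200968, minus strand), 2 in Ifit1 (chr19:34640739-34640888, plus strand), 1 in Rsad2 (chr12:26456453-26456602, minus strand), 2 overlapping in Bst2 (chr8:71537473-71537622, minus strand) and 0 in Slfn2 (chr11:83064962-83065111, plus strand).
Isg15: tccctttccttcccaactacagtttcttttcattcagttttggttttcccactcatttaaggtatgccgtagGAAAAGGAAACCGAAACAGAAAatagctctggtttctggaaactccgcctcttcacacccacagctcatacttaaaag
Ifit1: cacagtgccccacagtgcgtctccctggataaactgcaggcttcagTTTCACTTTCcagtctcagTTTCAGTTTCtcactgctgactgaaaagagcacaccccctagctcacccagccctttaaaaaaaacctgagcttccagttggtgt
Rsad2: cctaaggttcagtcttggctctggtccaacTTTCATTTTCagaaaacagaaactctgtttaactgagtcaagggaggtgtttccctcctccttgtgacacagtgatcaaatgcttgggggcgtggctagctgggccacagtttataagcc
Bst2: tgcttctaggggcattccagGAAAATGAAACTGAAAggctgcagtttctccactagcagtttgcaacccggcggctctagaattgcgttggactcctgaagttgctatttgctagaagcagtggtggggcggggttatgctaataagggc
Slfn2: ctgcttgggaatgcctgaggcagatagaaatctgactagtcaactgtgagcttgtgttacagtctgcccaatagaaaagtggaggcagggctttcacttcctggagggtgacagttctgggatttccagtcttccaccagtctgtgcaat
In Ifit1 and Rsad2 the letters read TTTC, 2 bases, TTTC because the match is on the other strand. The matches of Ifit1 begin 104 and 85 bases before the start and those of Bst2 begin 130 and 124 bases before it. Cxcl10 holds 1 match farther out, 213 bases before its start. The 20 bases after the Bst2 start were not found in its GENCODE transcripts. Ifi27l2a, the most abundant member, had no entry in the table.

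The series compared 1 library of Cx3cr1-/+ genotype (replicate 1, called the heterozygous library) with 1 of Cx3cr1+/+ genotype (replicate 1, called the wild-type library), both from the central nervous system, with microglia-like cell as the labelled type. Cx3cr1 encodes the fractalkine receptor of microglia and monocytes. The labels give both libraries the same protocol: GFP+ and GFP- cells from a Lin- pool (cells without lineage markers) of Cx3cr1-/+ mice went, in a donor to recipient ratio of 1:1, into CD45.1 recipients given busulfan in 4 doses of 25 mg/kg, a drug that clears the host's marrow. The donors named are all Cx3cr1-/+, so the origin of the wild-type library is not given, and the labels used here give no age, sex or number of animals. The kept cells numbered 1489 of 1837 barcodes and 1949 of 2359, with medians of 6880 and 6637 UMIs. With 1 library per genotype no test between genotypes exists: each interval below is a 95% interval for counting error only, and a difference compares 2 libraries. The libraries listed 339 barcodes in common, held by 255 and 198 kept cells.

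Cells were clustered on both libraries together without the members, the other interferon lists and sex-linked genes, so that no class was defined by the genes described. Of 18 clusters, 14 are described. The labelled cell type fitted only some of them. Cells with high P2ry12, Sall1, Tmem119 and Siglech, the defining genes of microglia, formed 1 class of 94 heterozygous and 125 wild-type cells at median depths of 9216.5 and 8687 UMIs (deep microglia-like cells). A class of 118 and 183 cells led by Sparc, Klk8 and C1qb stood at 2904 and 2531 UMIs (shallow microglia-like cells). Gpnmb, Spp1 and Apoe led a class of 140 and 44 macrophages of damage-response type. Classical monocyte-like cells (Ly6c2, Ccr2, Vcan) numbered 102 and 182 and patrolling monocyte-like cells (Ace, Treml4, Cd300e) 178 and 410. Mature neutrophil-like cells numbered 55 and 98, immature ones 56 and 64, NK cell-like cells 33 and 59, endothelial-like cells 80 and 36 and choroid plexus-like cells 48 and 36. A class led by Ctsk, Mgl2 and Ccl7 (157 and 190 cells) mixed markers of border macrophages and dendritic cells and was left unnamed (class II cluster). A further unnamed class of 95 and 90 cells carried dendritic-cell, dividing-cell and B cell genes. Another held 207 and 314 neutrophil-like cells that also carried C1q genes at 7196 and 6246 counts per 1000000 UMIs, of which 106 of the wild-type cells held both Xist and Y-linked transcripts, and a last one held 39 and 58 patrolling monocyte-like cells with C1q at 9586 and 8450. Those C1q levels and their part in the results were not tested, and no cell was removed as a doublet. Barcodes common to both libraries made up 34.5% of the endothelial-like and 85.7% of the choroid plexus-like cells, where 12 heterozygous and 0 wild-type cells had a barcode of their own library alone.

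The summed level of the 31 members, in counts per 1000000 UMIs of the class (CPM), differed widely between classes. Classical monocyte-like cells had 3664 CPM (3559 to 3772) in the heterozygous and 4403 (4312 to 4496) in the wild-type library, the highest of the 14 classes in each. Rank 2 went to patrolling monocyte-like cells with C1q in the heterozygous library (3073) and to mature neutrophil-like cells in the wild-type library (3177). The class II cluster (2910 and 2914) and the Gpnmb macrophages (2868 and 2888) held ranks 3 and 4 in both libraries, with overlapping intervals. Patrolling monocyte-like cells had 2639 and 2660 CPM. Deep microglia-like cells lay well below them at 1890 (1813 to 1970) and 1655 (1590 to 1721), beside shallow microglia-like cells at 1995 and 1657. Immature neutrophil-like cells had 968 and 1132, NK cell-like cells 715 and 892, and choroid plexus-like cells 372 and 305 CPM. The shallow and deep microglia-like classes held ranks 10 and 11 of 14 in both libraries, above immature neutrophils, NK cells and choroid plexus. Which of the classes the labelled microglia-like type covers is not given. Without barcodes common to both libraries, deep microglia-like cells stood at 1860 and 1647 CPM and classical monocyte-like cells at 3623 and 4447.

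**Figure D1:**
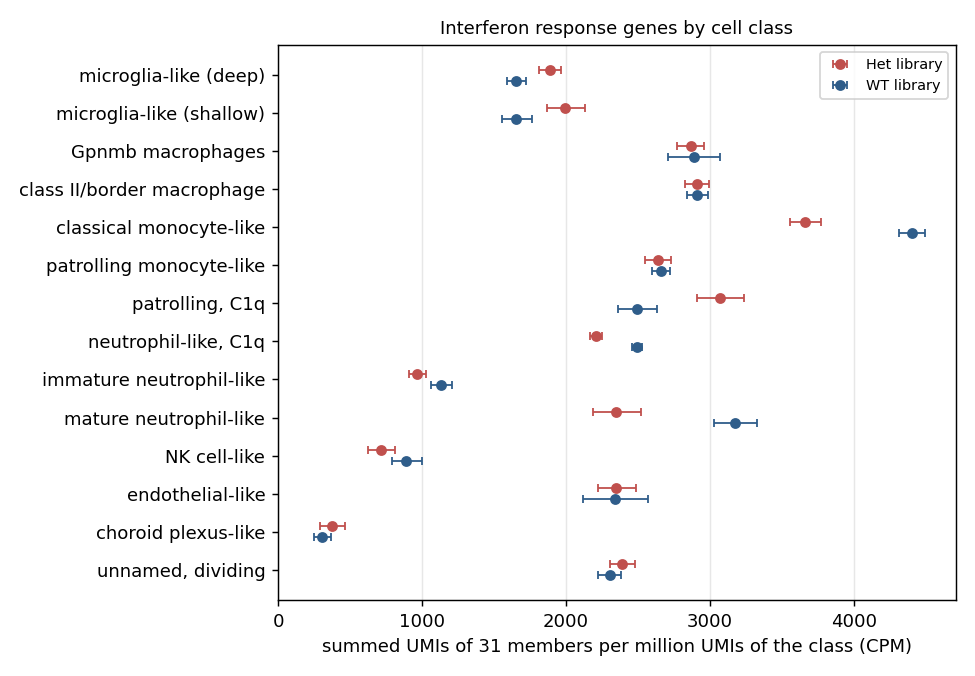
Summed level of the 31 members by cell class, as CPM (x axis) for 14 classes (y axis). Points are 1 library each and bars are exact Poisson 95% intervals; classical monocyte-like cells are farthest right in both libraries (3664 and 4403) and choroid plexus-like cells farthest left (372 and 305).

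Most of that sum came from 3 genes. Bst2, Ifi27l2a and Slfn2 made up 57.0% of the member UMIs in the heterozygous and 55.2% in the wild-type library, and each had its own place. Bst2, a membrane protein that tethers budding virus to the cell surface, stood at 1721 and 1364 CPM in Gpnmb macrophages, at 863 and 683 in shallow and 576 and 343 in deep microglia-like cells. It was low in patrolling monocyte-like cells (105 and 115) and in immature neutrophil-like cells (47.4 and 57.1). Ifi27l2a, a small mitochondrial protein that is induced in monocytes and microglia, had the opposite bias between these macrophages and monocytes, with 1017 and 1445 CPM in classical monocyte-like cells and 225 and 411 in Gpnmb macrophages. Slfn2, which keeps T cells and monocytes quiescent, was highest in mature neutrophil-like cells (756 and 810), close to classical monocyte-like (690 and 707) and patrolling monocyte-like cells (679 and 598), and lay at 133 and 205 in deep microglia-like cells. Choroid plexus-like cells had 9.92 and 2.90 CPM of Slfn2 but 144 and 125 of Bst2.

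Of the 31 members, 20 had their highest level in the same class in both libraries. Endothelial-like cells held 8 of these 20 (Ifit1, Ifit3, Ifi44, Xaf1, Slfn5, Usp18, Stat2 and Irf9), mature neutrophil-like cells 5 (Slfn2, Oasl2, Rtp4, Trim30a and Oas3), classical monocyte-like cells 4 (Irf7, Oas1a, Ifi204 and Ifi27l2a), and Gpnmb macrophages (Bst2), patrolling monocyte-like cells (Zbp1) and NK cell-like cells (Ifi203) 1 each. Some leads of endothelial-like cells over the next class were narrow in the 36 wild-type cells. Stat2 had 22 against 18.6 CPM, Usp18 27.5 against 23.2 and Irf9 66.1 against 56.4. The leads of Ifit1, Ifit3, Ifi44, Xaf1 and Slfn5 were wider. These orders were not tested, and the share of all genes with the same top class in both libraries was not computed. No member peaked in microglia-like cells in either library. When every member was given the same weight (mean of log2 of CPM plus 10), endothelial-like cells ranked 1 of 14 in the heterozygous and 3 in the wild-type library (6.0 and 5.86), although their plain sum ranked 8. On that scale classical monocyte-like cells had 5.93 and 6.17 and deep microglia-like cells 5.43 and 5.29.

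**Figure D2:**
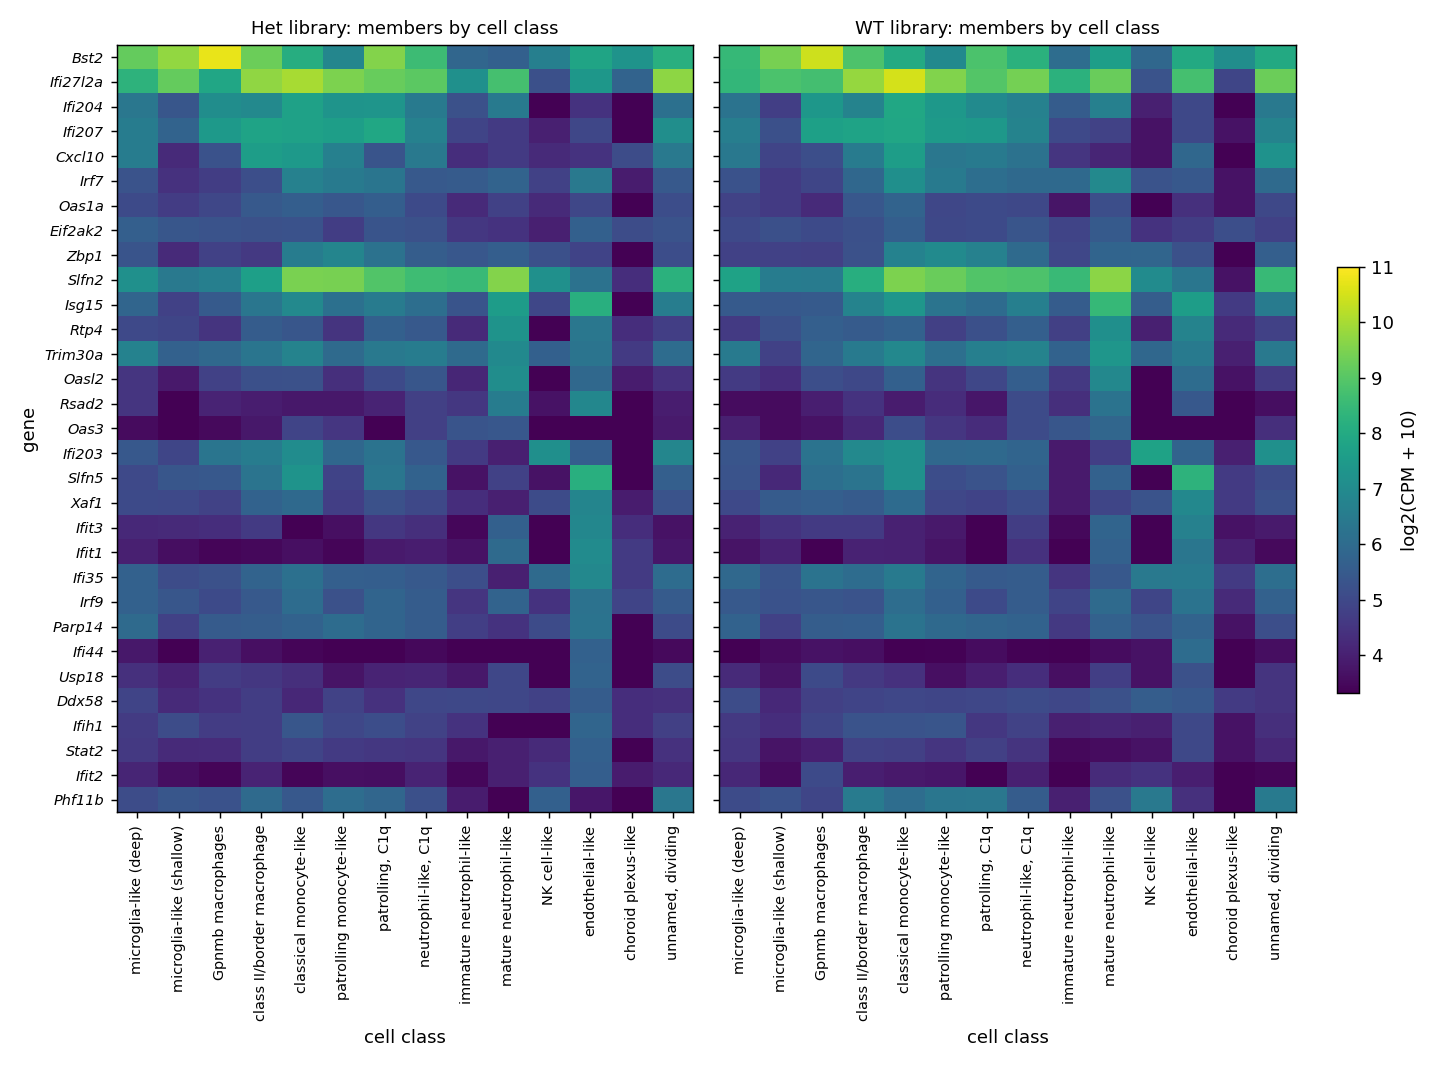
Level of each of the 31 members (rows) in 14 cell classes (columns), heterozygous library left and wild-type library right; color is log2 of CPM plus 10. Bst2, Ifi27l2a and Slfn2 reach the highest levels, Slfn5, Ifit1, Ifit3 and Ifi44 brighten in the endothelial-like column, and Oasl2 and Rtp4 in the mature neutrophil-like column of both libraries.

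Among the signal-transmitting members, Irf7, the factor that amplifies interferon production, had 93.6 and 133 CPM in classical monocyte-like cells and 29.2 and 28.2 in deep microglia-like cells. Irf9, the DNA-binding part of the interferon-activated complex, had 64.0 and 66.1 CPM in endothelial-like, 56.0 and 56.4 in classical monocyte-like, 42.5 and 34.2 in deep microglia-like and 27.6 and 41.0 in patrolling monocyte-like cells, and 23.3 and 31.9 in Gpnmb macrophages. Stat2 was rare everywhere, at 40.7 and 22 CPM in endothelial-like cells and 14.2 and 13.4 in deep microglia-like cells.

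The nucleic-acid sensors also split by lineage. Ifi204, a DNA-binding protein, had 201 and 226 CPM in classical monocyte-like cells, 125 and 156 in Gpnmb macrophages, 71.7 and 65.7 in deep microglia-like cells and 0 and 5.85 in NK cell-like cells. Its relative Ifi203 was instead highest in NK cell-like cells (131 and 205) and stood at 33.4 and 30.9 in deep microglia-like cells. Ifi207 was high in the class II cluster (209 and 210) and in classical monocyte-like cells (201 and 225). Zbp1, which senses left-handed nucleic acid and can trigger cell death, was highest in patrolling monocyte-like cells (102 and 119) and lay at 30.03 and 18.1 in deep microglia-like cells. The RNA sensors Ddx58 and Ifih1 stayed at or under 46.5 CPM in every class of both libraries. The Ifi200 genes share close sequence, as do the Ifit, Oas, Phf11 and Trim30 genes, so the split of reads within these families is uncertain.

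Apart from Bst2 and Ifit2, the antiviral effectors described here were highest outside the microglia-like cells and Gpnmb macrophages. Ifit2 was highest in Gpnmb macrophages in the wild-type library (23.2 CPM, 8 UMIs) and in endothelial-like cells in the heterozygous library (38.8 CPM). Isg15 had 275 (232 to 325) and 182 (125 to 255) CPM in endothelial-like cells and 181 (138 to 232) and 343 (296 to 396) in mature neutrophil-like cells, so the order of the 2 classes differed between the libraries. In classical monocyte-like cells it stood at 112 and 155 and in deep microglia-like cells at 46.7 and 34.9. Oasl2, an OAS-like protein, had 125 and 109 CPM in mature neutrophil-like cells against 12.5 and 14.8 in deep microglia-like cells. Rtp4, a receptor-transporting protein with antiviral action, had 142 and 133 in mature neutrophil-like cells and 22.5 and 14.8 in deep microglia-like cells. Slfn5 was led by endothelial-like cells at 275 and 303 and lay at 22.5 and 28.8 in deep microglia-like cells. Trim30a, which restrains inflammatory signalling, had 95.9 and 77.1 in deep microglia-like and 99.2 and 109 in classical monocyte-like cells. Cxcl10 was led by classical monocyte-like cells in the wild-type library (182) and by the class II cluster in the heterozygous library (185), where classical monocyte-like cells had 166.

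A group of 6 rare members, Ifit1, Ifit2, Ifit3, Rsad2, Ifi44 and Usp18, was picked out after their levels were seen. They are textbook early targets of interferon, and their sum had a different order of classes from the full set. Endothelial-like cells had 463 (406 to 526) and 286 (214 to 375) CPM of these genes and mature neutrophil-like cells 205 (159 to 259) and 183 (148 to 222). Deep microglia-like cells had 49.2 (37.5 to 63.5) and 28.8 (20.9 to 38.8). Classical monocyte-like cells, the top class for the full set, had 18.4 and 33.6, and patrolling monocyte-like cells 12.98 and 23.8. Without barcodes common to both libraries, the endothelial-like levels were 519 and 279 CPM over 58 and 18 cells. Hbb-bs and Hba-a1, haemoglobin genes, and Vtn, a pericyte gene, were among the leading genes of the endothelial-like class, and their part in these levels was not tested.

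**Figure D3:**
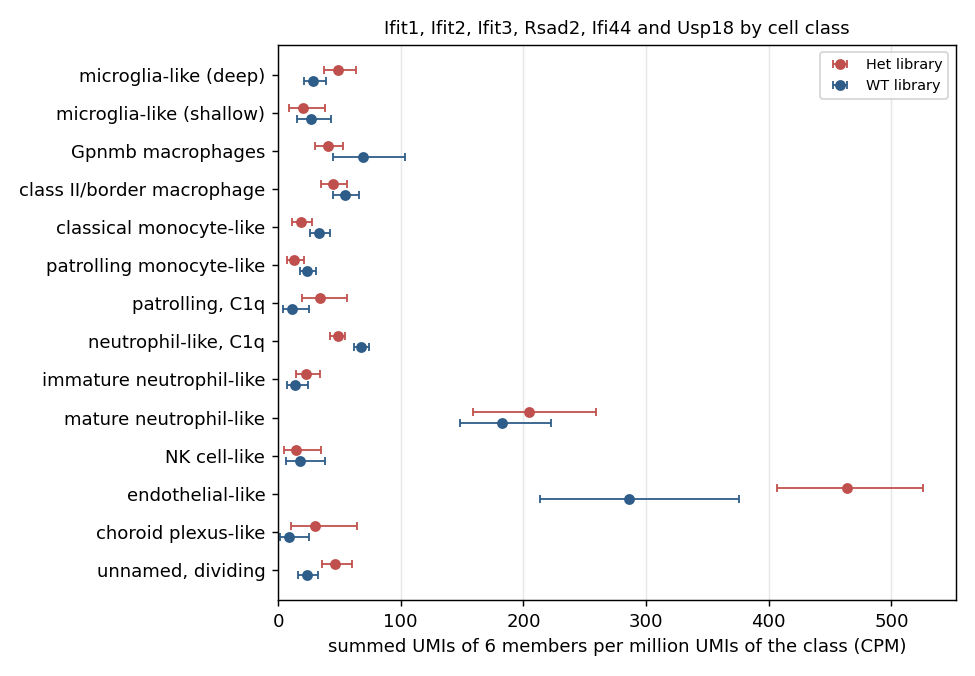
Summed level of Ifit1, Ifit2, Ifit3, Rsad2, Ifi44 and Usp18 by cell class, as CPM, 1 point per library with exact Poisson 95% intervals. Endothelial-like cells (463 and 286) and mature neutrophil-like cells (205 and 183) stand to the right of the other 12 classes, which lie at 69.5 or below.

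At least 1 of these 6 genes was detected in 290 of 1489 heterozygous and 389 of 1949 wild-type cells, but few cells carried several. Of the kept cells, 39 of 1489 in the heterozygous and 47 of 1949 in the wild-type library had UMIs of 3 or more of the 6, and these cells held 56.6% and 46.7% of all their UMIs. Their median depths were 17609 and 21789 UMIs, against 6880 and 6637 over all kept cells, and the part of depth was not tested. In the endothelial-like class 11 of 80 cells (13.8%, 7.07 to 23.3) and 3 of 36 (8.33%, 1.75 to 22.5) were of this kind, with 77.8% and 65.4% of the UMIs of the 6 genes. Among mature neutrophil-like cells, 1 heterozygous cell held 39 of the 69 UMIs of the 6 genes and 3 held 47, and 3 wild-type cells held 43 of 99. In deep microglia-like cells there were 4 of 94 (4.26%, 1.17 to 10.5) and 2 of 125 (1.60%, 0.194 to 5.66). The richest cell of each library, both in the neutrophil-like class with C1q, held 78 UMIs of the 6 genes, at a total of 122048 UMIs in the heterozygous and 13844 in the wild-type library. No classical monocyte-like cell of the heterozygous library and 2 of 182 in the wild-type library had 3 of the 6 genes.

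The full set was detected more widely. In cells thinned to 2000 UMIs, Ifi27l2a was found in 69.6% and 74.7% of classical monocyte-like cells and Slfn2 in 69.6% and 68.8%. Bst2 was found in 35.9% and 32.9% of them. After each cell was thinned to 2000 UMIs and shallower cells were left out, 78 of 92 heterozygous (84.8%, 75.8 to 91.4) and 142 of 170 wild-type (83.5%, 77.1 to 88.8) classical monocyte-like cells held 3 or more distinct members. The shares were 66.9% and 65.3% in patrolling monocyte-like cells, 62.4% and 61.9% in the class II cluster, 41.8% and 42.5% in Gpnmb macrophages, and 38.1% (27.7 to 49.3) and 34.5% (25.8 to 44.0) in deep microglia-like cells. Thinning left out 10 and 12 deep microglia-like cells. Choroid plexus-like cells gave 1 of 42 and 0 of 33, the lowest share of these classes. The heterozygous and wild-type shares overlapped within their intervals in each of these classes.

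Between libraries, the summed level of the members was lower in the heterozygous library beyond its counting interval in 5 of the 14 classes and higher in 3, and in 6 the interval took in 0. Ratios are heterozygous over wild type on the log2 scale. Over all kept cells the level was 2318 CPM in the heterozygous and 2522 in the wild-type library, a ratio of -0.12 (-0.14 to -0.10). It was lower in the heterozygous library in classical monocyte-like cells at -0.27 (-0.32 to -0.21) and in mature neutrophil-like cells, with 2352 against 3177 CPM, at -0.43 (-0.56 to -0.31). It was lower too in NK cell-like cells at -0.32 (-0.57 to -0.07), in immature neutrophil-like cells at -0.23 (-0.36 to -0.10) and in neutrophil-like cells with C1q at -0.17 (-0.21 to -0.14). It was higher in deep microglia-like cells at 0.19 (0.11 to 0.27), in shallow ones at 0.27 (0.14 to 0.40), and in patrolling monocyte-like cells with C1q at 0.30 (0.19 to 0.41). Among the classes whose interval took in 0 were the Gpnmb macrophages (-0.01, -0.11 to 0.09), the class II cluster (0.00, -0.06 to 0.05), patrolling monocyte-like cells (-0.01, -0.07 to 0.05) and endothelial-like cells (0.01, -0.15 to 0.17). In endothelial-like cells with Xist alone (63 and 17) the level was 2416 (2279 to 2560) against 1771 (1522 to 2048) CPM. In that class 3 wild-type cells with both Xist and Y-linked transcripts held 135 of the 425 member UMIs, at 3860 CPM. The part of these marks in the endothelial-like ratio was not tested. In mature neutrophil-like cells the median gene was itself at -0.10, and the ratio of the members was -0.28 after TMM scaling, which shifts that class by -0.15, and -0.23 after median-of-ratios scaling.

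In deep microglia-like cells the difference varied with the weight given to members and to cells. Without Bst2 the ratio of the other members was 0.00, with equal weight per cell it was 0.05 and with equal weight per member 0.13. Bst2 itself had 690 UMIs in the heterozygous and 511 in the wild-type library, or 576 (533 to 620) and 343 (314 to 374) CPM, a ratio of 0.75 (0.58 to 0.92), and its UMIs came from 68 of 94 and 98 of 125 cells. Across the 14 classes Bst2 was higher in the heterozygous library in 10 and lower in 4, mature neutrophil-like cells being the farthest at 41.5 against 186 CPM (-2.17, -3.09 to -1.35). Among deep microglia-like cells of the wild-type library, 31 held both Xist and Y-linked transcripts and 86 Xist alone, against 91 of 94 with Xist alone in the heterozygous library. In cells with Xist alone the summed level was 1886 against 1338 CPM (0.50, 0.39 to 0.60) and Bst2 stood at 566 against 362 (0.65, 0.45 to 0.85). Wild-type cells with both marks had 2024 CPM of the members at a median of 20373 UMIs. In the 18 and 43 deep microglia-like cells left after removing those with at least 5 UMIs each of C1q and of S100a8 and S100a9 together, the ratio was -0.28. The part of these mixed transcripts in the difference was not tested.

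Single members were called where their ratio passed 1.5-fold with at least 50 UMIs over both libraries in the class. In deep microglia-like cells 20 members had enough UMIs: 3 were higher in the heterozygous library (4.07% of all 6261 genes were) and 1 lower (2.83% of all genes). The higher ones were Bst2, the kinase Eif2ak2 (40.0 against 22.1 CPM, 0.86, 0.19 to 1.54) and Zbp1 (30.03 against 18.1, 0.73, -0.03 to 1.51). Zbp1 no longer passed without the 3 richest cells of each library (0.54) or without barcodes common to both libraries. Slfn2 was lower (133 against 205, -0.62, -0.91 to -0.34). In shallow microglia-like cells 3 members had enough UMIs and 0 passed in either direction (4.26% of all genes higher, 4.91% lower). Their median log2 ratio was 0.34, beside -0.01 for all genes. In the deep cells the members' median was 0.12, beside 0.02 for all genes. Under TMM scaling the split of all genes moved from 255 higher and 177 lower to 189 and 236 in the deep cells, and from 99 and 114 to 74 and 139 in the shallow ones, with the same members called.

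Among Gpnmb macrophages 11 members were counted, 0 higher (8.57% of all genes) and 3 lower (6.70%). The lower ones were Ifi27l2a (225 against 411 CPM, -0.87, -1.17 to -0.57), Ifi35 (27.2 against 66.6, -1.29, -2.09 to -0.47) and Slfn5 (33.4 against 57.9, -0.79, -1.59 to 0.05). Bst2 was higher there by 0.34 (0.19 to 0.48), under the 1.5-fold threshold, so the 2 most abundant members went opposite ways and the sum did not differ beyond its interval. In the class II cluster 26 members were counted, 1 higher (6.32% of all genes) and 4 lower (3.38%). The higher one, Cxcl10, had 185 against 81.6 CPM (1.18, 0.90 to 1.46), but 201 of its 311 heterozygous UMIs were in 3 cells, 94 of them in 1 cell, and without the 3 richest cells of each library the ratio was 0.07. The lower ones were Zbp1 (-0.96), Irf7 (-0.92), Ifih1 (-0.84) and Phf11b (-0.64). All genes split 408 higher to 218 lower there, 305 to 287 under TMM and 274 to 322 under median-of-ratios scaling, which added Isg15 and Slfn2 to the lower members. In Gpnmb macrophages median-of-ratios scaling moved the split from 339 and 265 to 420 and 210 with the same 3 members lower. Xist alone was held by 135 heterozygous and 6 wild-type Gpnmb macrophages, and Y-linked transcripts alone by 0 and 21. In the class II cluster the numbers were 121 and 28 for Xist and 4 and 81 for Y-linked transcripts. The part of sex marks in these ratios was not tested.

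At a finer clustering resolution 3 clusters drew mainly on the class II cluster, and their ratios diverged. Cells led by the border-macrophage genes Lyve1, Cd209f and Cbr2 (53 in each library) had 4315 (4156 to 4478) against 3147 (3010 to 3289) CPM of the members, a ratio of 0.46 (0.37 to 0.54). Cells led by the dendritic-cell genes Ccl17 and Cd209a (52 and 104) had 2091 against 2764 (-0.40, -0.50 to -0.31). Cells led by Ctsk and Acp5 (65 and 58) had 2138 against 2316 (-0.12, -0.24 to 0.01), and they held the Cxcl10 difference with 348 against 47.6 CPM. The Lyve1 cells had Bst2 at 944 against 659 CPM.

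In classical monocyte-like cells 25 members were counted, 0 higher (4.28% of all genes) and 4 lower (3.42%), and 21 of the 25 ratios were below 1. The libraries also differed in sex marks here: 83 heterozygous cells held Xist alone and 5 Y-linked transcripts alone, against 1 and 117 wild-type cells. The part of this difference in the ratios was not tested. The lower ones were Ddx58 (8.0 against 20.8 CPM, -1.38, -2.54 to -0.36), Phf11b (-0.77), Parp14 (-0.62) and Oasl2 (-0.61). The abundant Ifi27l2a had 1017 (962 to 1074) against 1445 (1393 to 1498), a ratio of -0.51 that did not pass 1.5-fold, Irf7 93.6 against 133 and Isg15 112 against 155. The members' median log2 ratio was -0.17, beside 0.01 for all genes. In patrolling monocyte-like cells 24 were counted, 1 higher (2.45% of all genes), Oas1a at 32.4 against 21.1 CPM (0.62, -0.00 to 1.24), and 0 lower (3.29%). Xist alone was held by 146 heterozygous and 5 wild-type cells of that class, and Y-linked transcripts alone by 1 and 229.

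Neutrophil-like cells with C1q, the deepest class, allowed 30 members to be counted: 0 were higher (2.80% of all genes), 3 were lower (4.12%), and 23 of 30 ratios were below 1. The lower ones were Isg15 (58.4 against 90.5 CPM, -0.63, -0.83 to -0.44), Ifit3 (-0.65) and Ifit1 (5.40 against 11.3, -1.07, -1.73 to -0.44). Under TMM scaling Isg15 no longer passed, and without barcodes common to both libraries Ifit3 did not. The members' median log2 ratio in this class was -0.24, beside -0.08 for all genes, so the median gene also lay below 0. Mature neutrophil-like cells had 10 members counted, 0 higher (4.09%) and 3 lower, where 19.7% of all genes were also lower. These were Bst2, Irf7 (44.5 against 113 CPM, -1.34, -2.26 to -0.51) and Isg15 (181 against 343, -0.92, -1.36 to -0.50), and they passed too under TMM and median-of-ratios scaling, where all genes split 129 higher to 225 lower and 167 to 207, against 64 to 308 without scaling. C1q genes stood at 1302 CPM in the heterozygous and 4012 in the wild-type cells of that class, and their part in the Bst2 difference was not tested. Xist alone was held there by 13 heterozygous and 3 wild-type cells, and Y-linked transcripts alone by 0 and 34. In neutrophil-like cells with C1q the numbers were 181 and 52 for Xist and 7 and 126 for Y-linked transcripts. The part of sex marks in these ratios was not tested.

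In endothelial-like cells 10 members were counted, 3 higher in the heterozygous library (13.9% of all genes) and 1 lower (9.14%). Rsad2 had 56 UMIs in 17 of 80 cells against 6 UMIs in 5 of 36, or 109 against 33.0 CPM (1.72, 0.50 to 3.22). Ifit1 had 120 against 71.6 (0.75, -0.13 to 1.74) and Isg15 275 against 182 (0.60, 0.04 to 1.19). Ifi27l2a was lower, at 159 against 413 (-1.38, -1.85 to -0.91), but 61 of its 75 wild-type UMIs were in 3 cells, and without the 3 richest cells of each library the ratio was -0.54, under the threshold. Without barcodes common to both libraries the same 4 genes passed, Rsad2 at 1.67 and Ifi27l2a at -1.95. TMM scaling moved the split of all genes from 340 higher and 224 lower to 397 and 165 and added Ifi35 to the higher members. S100a8 and S100a9 together stood at 7488 CPM in the heterozygous and 694 in the wild-type cells of that class. C1q genes stood at 917 and 259, and the part of these transcripts in the ratios was not tested. Of the 27 calls over these 9 classes, 23 had an interval on 1 side of 0 and 24 stayed past 1.5-fold without the 3 richest cells of each library for that gene.

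**Figure D4:**
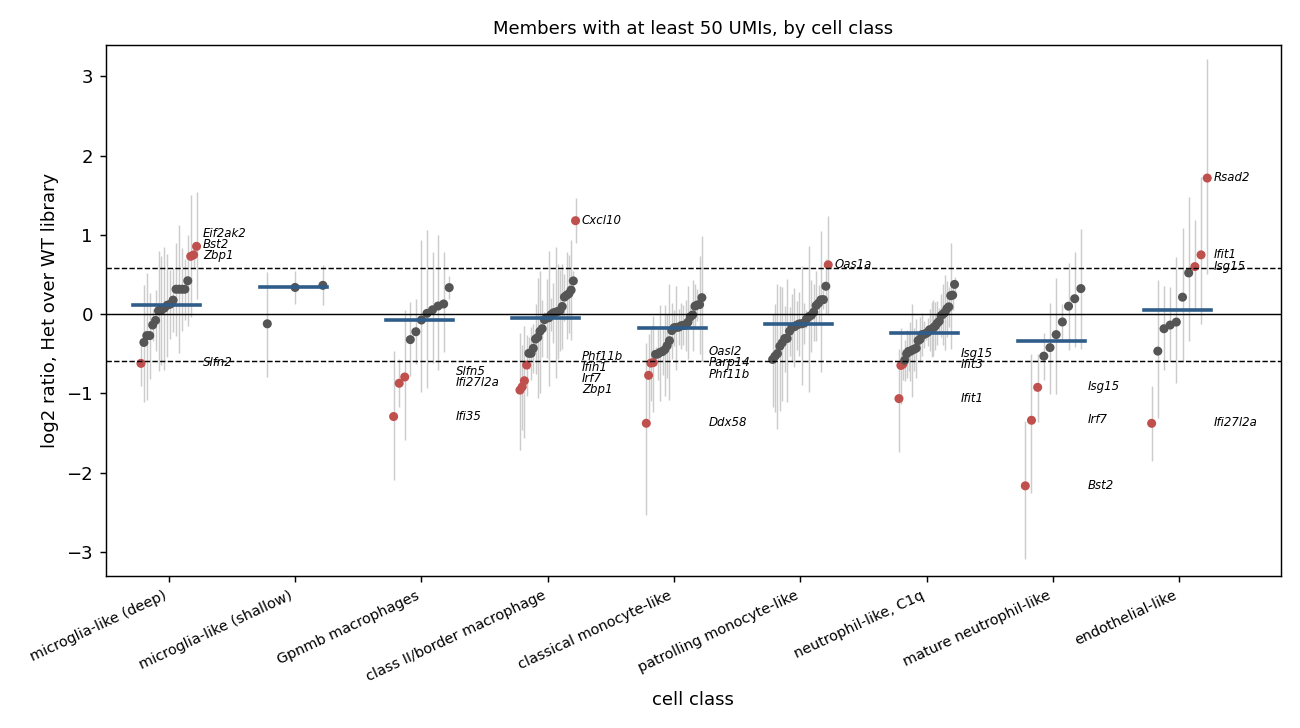
Log2 ratio of the heterozygous over the wild-type library (y axis) for each member with at least 50 UMIs, in 9 cell classes (x axis). Points are members with exact 95% intervals, red where past 1.5-fold (dashed lines), and blue bars are medians of the members; the median is 0.12 in deep microglia-like cells, -0.17 in classical monocyte-like cells and -0.34 in mature neutrophil-like cells.

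Transcripts of the ligands were nearly absent. Of 11 type I ligand genes, Ifnb1 had 13 UMIs in 11 heterozygous cells and 46 UMIs in 22 wild-type cells, and Ifnz had 0 and 1. The other 9 had 0 UMIs in both libraries, which allows up to 0.18 and 0.14 CPM each. Of the wild-type Ifnb1 UMIs, 25 were in 7 cells of the class II cluster, 10 of them in 1 cell, and 9 in 4 classical monocyte-like cells. Deep microglia-like cells held 0 Ifnb1 UMIs in both libraries. Ifng, the type II ligand, had 137 of its 139 UMIs and 155 of 164 in NK cell-like cells, in 22 of 33 and 38 of 59 of them.

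The receptor Ifnar2, through which type I interferon signals, had 266 and 218 CPM in deep microglia-like and 188 and 167 in classical monocyte-like cells, and Ifnar1 64.2 and 49.0 and 64.8 and 46.5. Of 6 receptor genes, 0 of 5 counted passed in deep microglia-like, classical monocyte-like or patrolling monocyte-like cells, where 2.45% to 4.28% of all genes passed in either single direction, and a count of 0 among 5 is near that background. Ifnar1 was lower in endothelial-like cells (83.4 against 138 CPM). Among other interferon-induced genes that are not members, Sp110 was higher in deep microglia-like cells (58.4 against 38.9 CPM, 0.59) and 0 were lower. In neutrophil-like cells with C1q 1 of 52 was higher (Oas1g, beside 2.80% of all genes) and 6 lower (4.12%; Oasl1, Trim21, Ifi47, Cmpk2, Phf11a and Ifit3b), with a median of -0.26. In classical monocyte-like cells 1 of 34 was higher (Ifi27, beside 4.28% of all genes) and 2 lower (Xrn1 and Parp9, beside 3.42%), with a median of -0.15. Of the genes led by interferon gamma, 0 of 6 counted passed in deep microglia-like cells, and in classical monocyte-like cells 0 of 7 were higher and 1 lower (Gbp3). In deep microglia-like cells 0 of 5 negative regulators and 0 of 7 nucleic-acid sensing genes passed, where 4.07% of all genes were higher and 2.83% lower. The suppressor Socs3 had 556 and 761 CPM there and the DNA-pathway adaptor Tmem173 (STING) 148 and 172.

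The summed level of other interferon-induced genes was higher in cells rich in the members, to a degree that varied by class and library. The list of those genes holds some that share close sequence with members (Ifit3b, Oas1g, Phf11a, Phf11d and Trim30d), and their part was not tested. Within each class and library, the 10% of cells with the most member UMIs after thinning was set beside the other cells, so the members' own difference is fixed by the choice. In deep microglia-like cells the 61 non-member genes had 3227 CPM in 11 rich cells against 2007 in 73 others of the heterozygous library (log2 0.69, 0.29 to 1.06) and 3813 in 16 against 2263 in 97 of the wild-type library (0.75, 0.45 to 1.05). In classical monocyte-like cells the differences were 0.47 (0.16 to 0.76) and 0.85 (0.67 to 1.04). In patrolling monocyte-like cells they were 0.22 (-0.02 to 0.46) and 0.32 (0.17 to 0.46). In Gpnmb macrophages they were 0.86 (0.53 to 1.18) and 0.51 (-0.27 to 1.22). Gene by gene, 1 of 3 and 4 of 8 passed the fold threshold in deep microglia-like cells, beside 17.7% and 17.1% of all genes. In classical monocyte-like cells 4 of 9 and 14 of 19 passed (18.9% and 17.6%). In patrolling monocyte-like cells 1 of 8 and 9 of 19 passed (14.4% and 11.8%). The interferon-gamma list gave 0.21 (-0.86 to 1.15) and 0.14 (-0.63 to 0.84) in deep microglia-like cells. In classical monocyte-like cells that list gave 0.78 (0.16 to 1.36) and 0.73 (0.30 to 1.15). It gave -0.44 (-1.07 to 0.14) and 0.57 (0.28 to 0.84) in patrolling monocyte-like cells. Cx3cr1 was lower in the rich deep microglia-like cells of both libraries, at 2227 against 3452 CPM (-0.63, -1.09 to -0.21) and 2031 against 3196 (-0.65, -1.05 to -0.28). Before thinning the rich cells had medians of 19534 and 10245.5 UMIs and the others 9552 and 9250, and the part of depth or of mixed cells in this contrast was not tested.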

How the data were processed

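Single-cell RNA was profiled with droplet-based 10x Genomics libraries of 1 heterozygous and 1 wild-type sample. The authors deposited raw UMI counts per gene and cell barcode, not normalized. Cell Ranger 4.0 and the mm10 mouse genome are given, per the submitters' processing notes, while the file headers name Cell Ranger 5.0.0. The files do not settle between them. Gene positions came from GENCODE M21 (GRCm38) and promoter sequences from RefSeq.

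Barcodes with fewer than 500 genes, or 10% or more mitochondrial UMIs, were removed. Total counts were 17828344 and 22062823. Scrublet called 0 doublets of 1489 and 1949 cells, its thresholds lying above the highest scores, so doublets remain. Cells were clustered in scanpy 1.11.5 (2000 variable genes without the members, interferon lists and sex-linked genes; 30 components, 15 neighbours, Leiden at resolution 0.5, igraph 0.11.9, seed 0) and classes were named from marker lists. A name needed at least 3 markers 1.5-fold higher. Counts were summed per class and library and divided by the class total (CPM). Intervals are 95%: exact Poisson for levels, exact conditional binomial for ratios and Clopper-Pearson for shares, with 3 UMIs as the floor for a count of 0. A gene was called past 1.5-fold with at least 50 UMIs. All members were named, with up to 3 genes of each other list by the size of their ratio, or the most abundant where none passed. Other genes, and the 6 rare members, were chosen after their values were seen. No test across samples was possible. The computation was tested on simulated counts. The members and lists were chosen with earlier results of these data known. Alternatives are given at the end (TMM from edgeR 4.0.16 in R 4.3.3). Results that need withheld items are not reported here.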

Additional observations from a re-analysis of the deposited data

Results flagged for a closer look

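The summed level of the members went opposite ways in 2 cell classes under the same contrast of heterozygous over wild-type library: 0.19 on the log2 scale in deep microglia-like cells and -0.43 in mature neutrophil-like cells. Bst2 went opposite ways as well, at 0.34 in Gpnmb macrophages and -2.17 in mature neutrophil-like cells. With 1 library per genotype these differences between classes were not tested. The astrocyte-like cells, which entered no comparison, carried the members at 2216 CPM in 10 heterozygous cells and 194 in 7 wild-type cells, and 3 heterozygous cells held 96, 38 and 27 of their 166 member UMIs.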

How the results depend on the processing

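No paired analysis was possible because each genotype has 1 library, and no replicate could be left out. Ratios are log2 of the heterozygous over the wild-type library, and 48 of the 65 alternative values of the summed level's ratio moved by less than the counting interval. In deep microglia-like cells (0.19) the ratio was 0.053 with equal weight per cell, 0.0030 without Bst2 (its most abundant member), 0.33 after clustering with all genes, 0.50 in cells with Xist alone and -0.28, the opposite direction, without cells holding C1q and S100a8 or S100a9. In Gpnmb macrophages (-0.01) it was -0.20 with equal weight per member, -0.41 without the most abundant member and 0.12 without the cell filter. In classical monocyte-like cells (-0.27) it was -0.16 without the most abundant member, -0.21 at resolution 1.0, -0.32 after clustering with all genes and -0.33 without cells holding both transcript kinds. In patrolling monocyte-like cells (-0.01) it was -0.10 with equal weight per member and 0.065 at resolution 0.25. In mature neutrophil-like cells (-0.43) it was -0.28 under TMM, -0.23 under median-of-ratios scaling and -0.57 without the most abundant member, and this class was not recovered without the cell filter. Members past 1.5-fold numbered 4 in deep microglia-like cells, 2 at a minimum of 200 UMIs and 0 at 2-fold. In Gpnmb macrophages there were 3, 6 at a minimum of 20 UMIs, 1 at 200 UMIs, 1 at 2-fold and 1 without the 3 richest cells. In classical monocyte-like cells there were 4, 0 at 200 UMIs, 1 at 2-fold and 1 under the stricter cell filter. In patrolling monocyte-like cells there was 1, 2 at 20 UMIs, 0 at 200 UMIs, 0 at 2-fold, 2 under TMM and 0 under the stricter filter. In mature neutrophil-like cells there were 3, 7 at 20 UMIs, 1 at 200 UMIs and 5 without the 3 richest cells. With the 6 rare members only, the level in classical monocyte-like cells over all other cells turned to -1.67 in the heterozygous and -0.62 in the wild-type library. The Xist, richest-cell and rare-member alternatives were chosen after seeing the data, and the causes of these changes were not tested.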
